A study of Homo sapiens with 4 samples.

Results

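Kinesins are the motor proteins that convert ATP into movement along microtubules, in most cases towards the plus end. Some build the mitotic spindle, move chromosomes and complete cytokinesis, and their mRNAs are known to peak in G2 and M phase, whereas others carry vesicles, organelles and mRNAs throughout the cell cycle or serve the cilium. The kinesin motor family was examined here in UM-UC-3 cells, a line established from a human bladder cancer. Members were taken by name alone, as the protein-coding genes with a KIF or KIFC symbol that were listed for all 4 libraries. That gave 38 genes of 24039 genes listed for all 4. A further 4 of the 42 symbols were not among them, because KIF2B and KIF19 had no row in the tables used here, KIF6 was listed for 1 library only (9 reads), and KIF4B for 3 libraries (2 to 7 reads). CENPE, the kinesin-7 motor of kinetochores, does not carry a KIF symbol and is given below with the partners. By their known roles the 38 members were divided into 12 mitotic kinesins, 17 transport kinesins, 4 kinesins of the cilium and Hedgehog signalling, and 5 others.

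Total RNA was sequenced from cells harvested 48 h after transfection with 75 nM siRNA in RNAiMAX, with 1 library per condition. The conditions were a non-targeting control siRNA and, in each of the other libraries, 2 siRNAs against hnRNPK (si-hnRNPK), lncRNA-LBCS (si-lncRNA-LBCS) or PTBP1 (si-PTBP1). hnRNPK and PTBP1 are RNA-binding proteins, and PTBP1 is known as a repressor of neuronal exons. Levels are given as CPM (reads of a gene per 1000000 reads of its library), and changes as the difference in log2(CPM + 1) against the control library. The changes of genes with low levels are understated on this scale. A gene was tested where it reached 1 CPM in either library, and is said to have risen or fallen where the difference was at least 1. There were no replicates, so no p-value is given, and the 95% intervals of single genes and of shares are exact binomial (Clopper-Pearson) intervals. Those of the fold of 1 gene relative to that of another are normal approximations on the log scale. Both kinds cover counting error only. HNRNPK itself was at 783 CPM in control and 188 CPM in si-hnRNPK, and PTBP1 at 280.0 CPM in control and 89.7 CPM in si-PTBP1. The gene matched by both lncRNA-LBCS siRNAs had 110 reads in control and 103 reads in the library labelled for it (hereafter the LBCS-labelled library). That is 0.818 times the control level (0.619 to 1.08), so a level lower than control was not detectable. The gene was at 1.79 CPM in control, 3.43 in si-hnRNPK, 1.47 in the LBCS-labelled library and 3.82 in si-PTBP1. Against the geometric mean of the other 3 libraries its change in the LBCS-labelled library was -0.66. The libraries held 54301152 to 70232674 reads on listed genes. Of the urothelial and epithelial markers, KRT8 and KRT18 were present at 63.0 to 121 CPM, PPARG at 2.33 to 5.19 CPM and KRT7 at 1.42 to 3.03 CPM. UPK1A, UPK1B, UPK2, KRT5, KRT19, KRT20, EPCAM and GATA3 were at no more than 0.321 CPM in any library that listed them. UPK3A and CDH1 were not listed. Of the markers of other cells, CD14, CD68 and VWF had at most 4 reads in control, and COL1A1 was at 0.407, 0.387, 0.327 and 2.25 CPM in control, si-hnRNPK, the LBCS-labelled library and si-PTBP1.

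Of the 11 kinesins that fell in si-hnRNPK, 10 were mitotic kinesins, and the other was KIF24. Of the 12 mitotic kinesins, 10 fell and 0 rose as compared with the control library, with a median change of -1.18, whereas 3.93% of the 13672 genes tested fell, 3.55% rose (7.48% in either direction) and the median of all genes was -0.11. Of the 14 transport kinesins that reached 1 CPM, 0 fell and 0 rose, near those shares of all genes, and their median was -0.15. KIF5B, the lowest of them at -0.99, lay just outside the threshold. The changes of the mitotic kinesins ran from -2.05 for KIF18B to -0.57 for KIF18A. All 12 had their lowest level of the 4 libraries in si-hnRNPK, and for all 12 the counting interval lay below the control level. Over all genes tested, 58.4% lay below control, and a binomial test of the reads called 10872 of 13672 in either direction. The 12 do not include KIF2A, a spindle motor counted with the others, which had its lowest level in si-PTBP1. With KIF2A added to the list, 10 of 13 fell, with a median of -1.15. MKI67 and TOP2A, markers of cycling cells, were at 601 and 667 CPM in control and at 95.2 and 251 CPM in si-hnRNPK. Their part in the result was not tested. In a bulk culture, fewer cells in G2 and M phase and less mRNA per cell cannot be told apart.

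Scaling of the libraries bears on the calls near the threshold. Median-of-ratios scaling moved the median of all genes by 0.11 on the log2 scale between control and si-hnRNPK, and with it 7 of the 12 mitotic kinesins fell, with a median of -1.07, while KIF2C, KIF22 and KIF23 no longer reached the threshold. Over all genes it turned 486 genes up and 537 down into 610 up and 374 down.

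**Figure D1:**
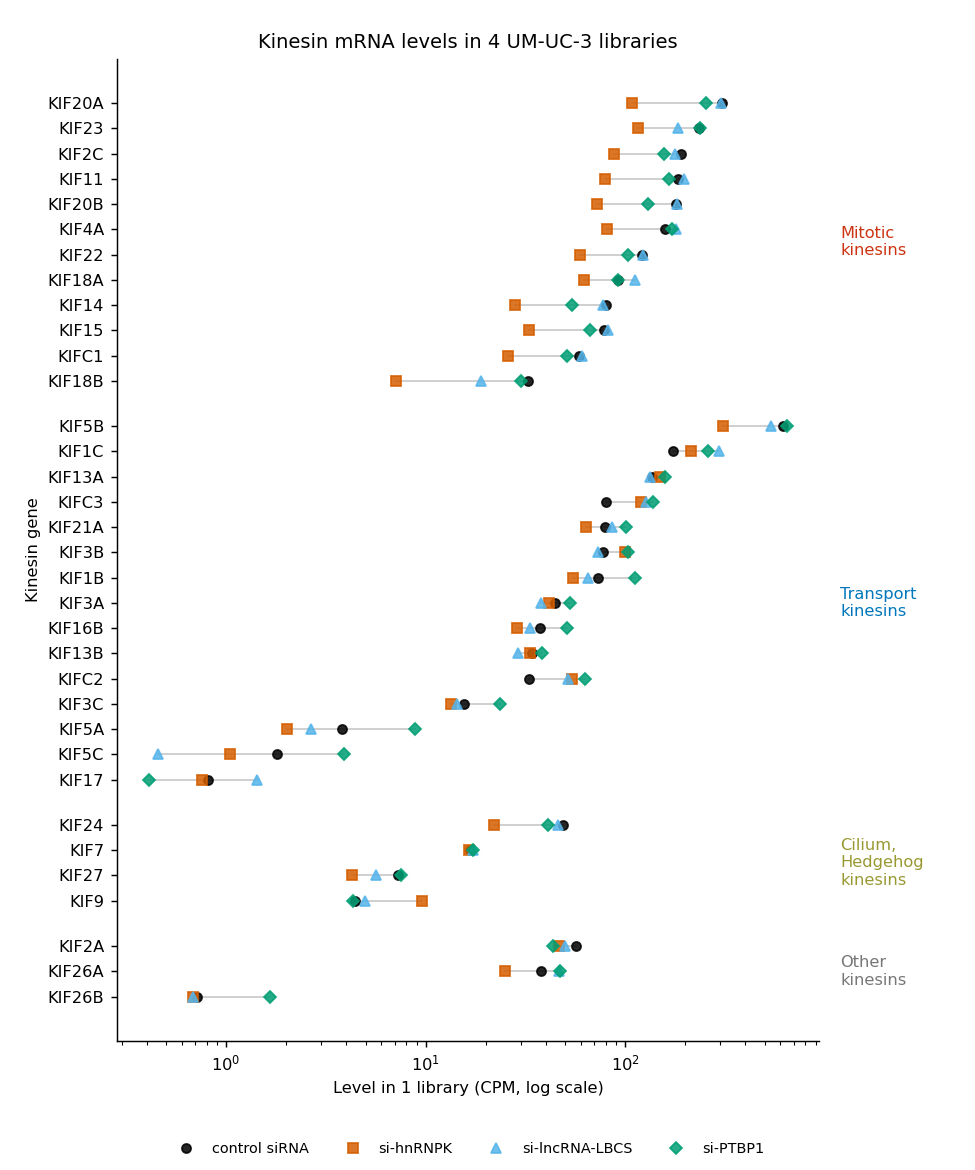
Level of each kinesin that reached 1 CPM in at least 1 library. The x axis is CPM on a log scale, each point is 1 library, and the grey line spans the lowest and highest library. The 12 mitotic kinesins have their si-hnRNPK point at the left end, and KIF1C, KIFC2 and KIFC3 have their control point at the left end.

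The motors that set up the bipolar spindle are KIF11 (Eg5), which slides antiparallel microtubules apart, KIF15, which shares that task, and KIFC1, a minus-end motor that focuses the poles. KIF11 (ENSG00000138160, chromosome 10 of GRCh38, 92593286 to 92655395) was at 183 CPM in control, 79.3 in si-hnRNPK, 197 in the LBCS-labelled library and 165 in si-PTBP1. The level in si-hnRNPK was 43.3% of control (41.8 to 44.8%), and only that library stood apart from the others by more than 1 on the log2 scale. KIF15 was at 78.3 CPM in control, 32.9 in si-hnRNPK, 81.5 in the LBCS-labelled library and 66.7 in si-PTBP1. KIFC1 was at 58.6, 25.8, 60.9 and 50.9 CPM in the same order. These 3 spindle motors fell by nearly the same amount, with changes of -1.20, -1.22 and -1.15 and overlapping intervals.

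Among the motors that act on microtubule plus ends, the kinesin-8 pair differed most. KIF18B, which helps to shorten astral microtubules, was at 32.6 CPM in control, 7.13 in si-hnRNPK, 18.96 in the LBCS-labelled library and 29.9 in si-PTBP1. KIF18A, which damps chromosome movements at the metaphase plate, was at 92.2, 61.9, 111 and 91.9 CPM in the same order. In si-hnRNPK, KIF18B was at 21.9% of control (19.6 to 24.4%) and KIF18A at 67.1% (64.3 to 70.0%). The fold of KIF18B relative to that of KIF18A was 0.326 (0.290 to 0.367), 0.482 (0.446 to 0.521) in the LBCS-labelled library and 0.921 (0.854 to 0.993) in si-PTBP1. KIF2C (MCAK), a kinesin-13 that takes microtubule ends apart at kinetochores, was at 190.2 CPM in control and 87.7, 178 and 157 CPM in the si-hnRNPK library, the LBCS-labelled library and the si-PTBP1 library. Its relative KIF2A, which works on spindle poles and also in neurons and was counted with the others, was at 56.8, 46.3, 49.6 and 43.3 CPM, with a change of -0.29 in si-hnRNPK.

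The chromokinesins KIF4A and KIF22 bind chromosome arms. KIF4A was at 159 CPM in control, 81.1 in si-hnRNPK, 180.0 in the LBCS-labelled library and 172 in si-PTBP1, and its change of -0.96 in si-hnRNPK lay just outside the threshold. KIF22 was at 121, 59.5, 123 and 104 CPM, and its change of -1.01 (-1.07 to -0.95) lay just inside it. Reads of KIF4A can be shared with its retrocopy KIF4B, which had 7 reads in si-hnRNPK.

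The central spindle and cytokinesis are served by KIF20A, KIF20B, KIF23 and KIF14. KIF20A (MKLP2), which brings the chromosomal passenger complex to the central spindle, was at 307 CPM in control, 108 in si-hnRNPK, 301 in the LBCS-labelled library and 254 in si-PTBP1. KIF23 (MKLP1), the motor of the centralspindlin complex, was at 235, 116, 184 and 237 CPM. KIF20B was at 180.2, 72.2, 182 and 129 CPM, and KIF14, which works with citron kinase in cytokinesis, at 79.9, 28.0, 77.2 and 54.4 CPM. All 4 fell in si-hnRNPK, to 35.3% of control for KIF20A, 49.4% for KIF23, 40.1% for KIF20B and 35.01% for KIF14. The fold of KIF20A was 0.713 times that of KIF23 (0.684 to 0.744). KIF23 was lower than control in the LBCS-labelled library as well, at 78.3% (76.5 to 80.2%), where KIF20A was at 97.9% (96.0 to 99.8%).

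The same 12 genes were then compared between si-hnRNPK and the other knockdown libraries, without the control. These comparisons share the si-hnRNPK library with those above, in which all 12 had their lowest level, so they are not independent of them. Against the LBCS-labelled library, 10 of the 12 mitotic kinesins were lower by at least 1, against 2.51% of the genes tested, with a median of -1.24. Against si-PTBP1, 5 of the 12 were lower by at least 1, against 6.05% of the genes tested, with a median of -0.97 and a range from -1.93 to -0.56. In both comparisons the counting interval lay below the level of the other library for 12 of 12. It also did so for 9 of the 17 transport kinesins against the LBCS-labelled library and 13 of the 17 against si-PTBP1. The share of all genes with such an interval was not calculated. Of the 17 transport kinesins, 0 were lower by at least 1 than in the LBCS-labelled library, and 4 (KIF1B, KIF5A, KIF5B and KIF5C) were lower by at least 1 than in si-PTBP1. The 17 were counted without the filter of 1 CPM used for the percentages. KIF1A and KIF21B were below that level in both comparisons, and KIF17 in that with si-PTBP1.

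**Figure D2:**
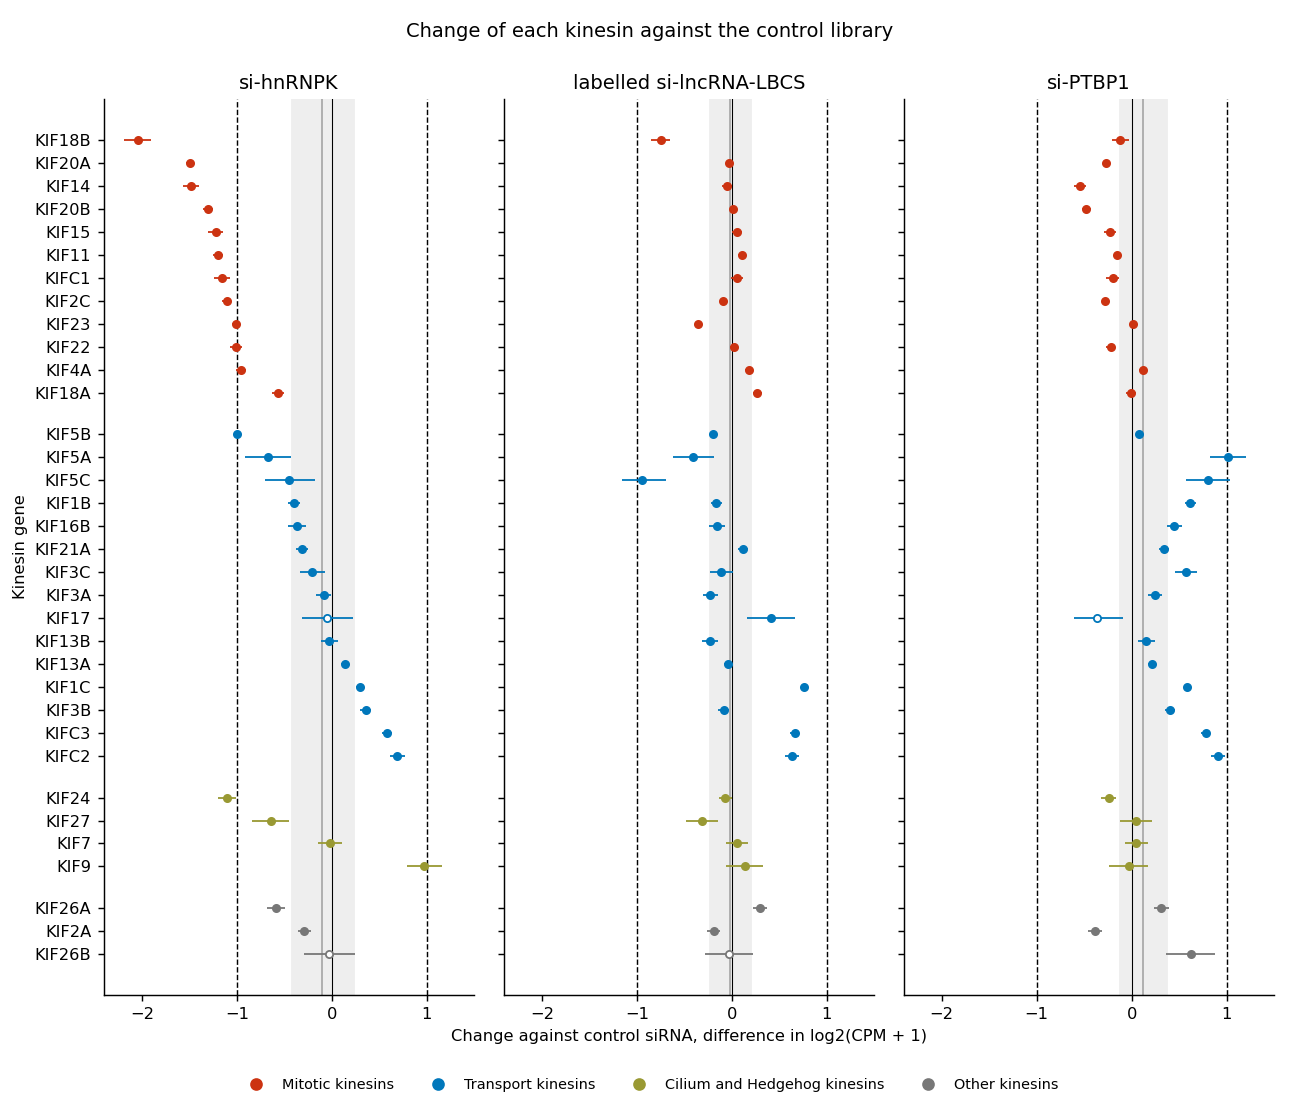
Change of each kinesin in the 3 knockdown libraries against the control library, as the difference in log2(CPM + 1), with 95% counting intervals as bars. Dashed lines mark changes of 1, grey bands the interquartile range of all genes tested, grey lines their median, and open circles genes below 1 CPM in both libraries of a panel. The mitotic kinesins lie at -2.05 to -0.57 in si-hnRNPK. The transport kinesins at 1 CPM or more in control or si-PTBP1 lie at 0.08 to 1.02 in si-PTBP1, and KIF17, an open circle in that panel, lies at -0.36.

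The promoters of the members were searched for the cell cycle homology region (CHR, letters TTTGAA, or TTCAAA on the other strand) and the CCAAT box (letters CCAAT, or ATTGG), elements known from promoters of genes expressed in G2 and M phase. RefSeq promoters of GRCh38.p14, from 250 bases before to 50 bases after the start, were matched by symbol for 31 of the 38 members. The CHR letters were present in 9 of 12 mitotic promoters and 1 of 12 transport promoters, as compared with 15.4% of 27305 promoters. The CCAAT letters were present in 10 of 12 mitotic and 3 of 12 transport promoters, as compared with 35.7% of all, and both elements in 8 of 12 mitotic and 1 of 12 transport promoters, as compared with 6.08% of all. The 1 transport kinesin with CHR letters was KIF5B, which also had the lowest change of the transport kinesins in si-hnRNPK. Its CHR letters lay further before the start than those of any mitotic promoter. They also lay before its CCAAT letters, whereas in the 8 mitotic promoters with both elements the CHR letters came after the CCAAT letters. Whether these letters bear on the change of KIF5B was not tested. Within the mitotic kinesins the median was -1.20 for the 9 with CHR letters and -1.11 for the 3 without (KIF2C, KIF20A and KIF22). KIF18B, the most changed, and KIF18A, the least changed, both had both elements. Whether the letters bear on the changes of the mitotic kinesins was not tested. A match of letters is a description and not a binding site. Shown are the kinesin-8 pair with the largest and smallest change, KIF20A with CCAAT letters only, KIF5B, and KIF1C as a transport kinesin with neither, 5′ to 3′ along the gene with both elements in capitals; no 2 of the marked elements overlap. The regions are chr17:44947724-44948023 (minus strand) for KIF18B, chr11:28108107-28108406 (minus) for KIF18A, chr5:138178862-138179161 (plus) for KIF20A, chr10:32056376-32056675 (minus) for KIF5B and chr17:4997700-4997999 (plus) for KIF1C.
KIF18B: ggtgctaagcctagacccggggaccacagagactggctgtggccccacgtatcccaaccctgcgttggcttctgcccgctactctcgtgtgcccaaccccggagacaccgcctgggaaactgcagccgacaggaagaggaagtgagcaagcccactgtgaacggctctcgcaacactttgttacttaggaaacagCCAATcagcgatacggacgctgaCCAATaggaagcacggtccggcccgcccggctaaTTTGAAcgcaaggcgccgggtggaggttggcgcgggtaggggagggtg
KIF18A: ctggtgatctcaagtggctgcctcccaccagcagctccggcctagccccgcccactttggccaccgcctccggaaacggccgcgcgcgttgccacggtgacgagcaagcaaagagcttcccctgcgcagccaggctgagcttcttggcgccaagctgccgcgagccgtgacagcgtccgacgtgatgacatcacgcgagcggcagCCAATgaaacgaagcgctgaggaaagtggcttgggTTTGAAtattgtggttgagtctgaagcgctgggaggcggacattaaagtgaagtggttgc
KIF20A: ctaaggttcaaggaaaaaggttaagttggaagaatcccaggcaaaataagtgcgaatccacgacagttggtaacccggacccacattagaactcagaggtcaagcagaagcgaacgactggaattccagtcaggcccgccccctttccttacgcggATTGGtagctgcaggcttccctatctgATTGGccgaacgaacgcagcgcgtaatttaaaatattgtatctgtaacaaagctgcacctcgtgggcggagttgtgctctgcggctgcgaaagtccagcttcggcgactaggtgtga
KIF5B: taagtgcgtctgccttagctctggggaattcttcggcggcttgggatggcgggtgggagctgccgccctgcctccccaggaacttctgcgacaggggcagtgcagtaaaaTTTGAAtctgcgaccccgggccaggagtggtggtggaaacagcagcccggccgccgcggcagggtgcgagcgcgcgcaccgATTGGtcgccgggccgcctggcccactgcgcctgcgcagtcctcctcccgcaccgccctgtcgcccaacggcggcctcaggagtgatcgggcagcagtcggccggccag
KIF1C: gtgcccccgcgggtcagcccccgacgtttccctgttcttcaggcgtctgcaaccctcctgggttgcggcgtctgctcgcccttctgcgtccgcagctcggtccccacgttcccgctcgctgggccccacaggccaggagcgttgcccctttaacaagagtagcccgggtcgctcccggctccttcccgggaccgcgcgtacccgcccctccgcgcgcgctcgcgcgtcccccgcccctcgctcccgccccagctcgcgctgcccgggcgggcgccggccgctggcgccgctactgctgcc

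The transport kinesins did not share 1 direction in si-hnRNPK. KIF5B, the ubiquitous heavy chain of conventional kinesin (ENSG00000170759, chromosome 10, 32009010 to 32056431), was at 614 CPM in control, 308 in si-hnRNPK, 536 in the LBCS-labelled library and 647 in si-PTBP1. It was at 50.1% of control in si-hnRNPK (49.2 to 51.0%), a change of -0.99 (-1.02 to -0.97) just outside the threshold, and the other 3 libraries lay between 87.2% and 105% of control. Its neuronal relatives KIF5A and KIF5C were low, with 235 and 110 reads in control. Divided by the length of the longest annotated coding transcript, KIF5B was the most abundant kinesin in control at 105 CPM per kb, followed by KIF20A at 96.0, KIF2C at 64.4 and KIF23 at 63.1 CPM per kb. On that scale the median level in control was 32.3 CPM per kb for the mitotic and 6.999 CPM per kb for the transport kinesins.

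KIF1C, a fast kinesin-3 of vesicle transport, KIFC2 and KIFC3, both kinesins with a C-terminal motor, had the highest changes of the transport kinesins in si-hnRNPK beside KIF3B. KIF1C was at 174 CPM in control and 214, 296 and 261 CPM in si-hnRNPK, the LBCS-labelled library and si-PTBP1. KIFC2 was at 33.0 CPM in control and 53.8, 51.8 and 62.9 CPM, and KIFC3 at 80.3 CPM in control and 121, 128 and 139 CPM, in the same order. For these 3 genes the control was the lowest of the 4 libraries, and none reached the threshold. Against the geometric mean of the other 3 libraries, their changes in si-hnRNPK were -0.15, 0.17 and 0.10, as compared with 0.30, 0.69 and 0.58 against control alone. The 3 comparisons share the control library, so a low control library and a higher level in each knockdown cannot be told apart.

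None of the other transport kinesins passed the threshold in si-hnRNPK. KIF3A, which pairs with KIF3B as kinesin-2, was at 44.3 CPM in control and 41.6, 37.7 and 52.7 CPM in si-hnRNPK, the LBCS-labelled library and si-PTBP1. KIF3B was at 77.4 CPM in control and 99.3, 73.0 and 103 CPM, and KIF3C, their relative enriched in neurons, at 15.6 CPM in control and 13.4, 14.3 and 23.6 CPM. The fold of KIF3B in si-hnRNPK was 1.36 times that of KIF3A (1.27 to 1.46), and it was 1.11 times in the LBCS-labelled library and 1.12 times in si-PTBP1, which share the control. KIF13A, a carrier of endosomal cargo, was at 136 CPM in control and 149.9, 133 and 159 CPM, and KIF13B at 34.1 CPM in control and 33.5, 29.02 and 38.1 CPM. KIF1B, which carries mitochondria and synaptic vesicle precursors, was at 72.9 CPM in control and 55.04, 65.0 and 112 CPM. The early endosome motor KIF16B was at 37.2 CPM in control and 28.6, 33.3 and 51.2 CPM. All of these except KIF3B and KIF13A lay below control in si-hnRNPK, where KIF3A and KIF13B were at 0.02 and 0.08 with median-of-ratios scaling, and all lay above it in si-PTBP1. KIF21A was at 79.4 CPM in control and 63.5, 86.3 and 101 CPM. KIF17, a motor of dendrites, was at 0.815, 0.755, 1.42 and 0.410 CPM, and was tested in the LBCS-labelled library only, with a change of 0.42. KIF1A and KIF21B stayed below 1 CPM in every library.

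**Figure D3:**
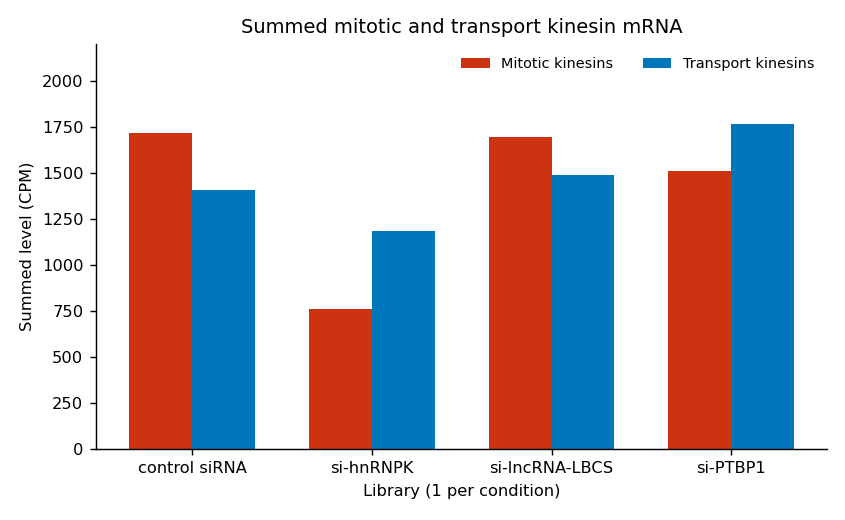
Summed CPM of the 12 mitotic and the 17 transport kinesins in each library, with 1 library per condition and no error bars. The mitotic sum is 1716 CPM in control and 759.8 CPM in si-hnRNPK, and the transport sum exceeds the mitotic sum in si-hnRNPK and si-PTBP1.

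The composition of the kinesin mRNAs differed between libraries. Reads on all 38 genes summed to 3295 CPM in control, 2070.0 in si-hnRNPK, 3353 in the LBCS-labelled library and 3439 in si-PTBP1. Mitotic kinesins made up 52.1% of kinesin reads in control (51.9 to 52.3%), 36.7% in si-hnRNPK (36.4 to 37.0%), 50.5% in the LBCS-labelled library (50.3 to 50.7%) and 43.9% in si-PTBP1 (43.7 to 44.2%). The share was lowest in si-hnRNPK, next lowest in si-PTBP1, and nearest to control in the LBCS-labelled library. The mitotic sum was at 44.3% of control in si-hnRNPK, and the transport sum at 84.3%. Without KIF5B, a list set after seeing the data, the transport sum was at 791.9 CPM in control and 877.9 CPM in si-hnRNPK, or 111% of control. In si-PTBP1 the mitotic sum was at 88.0% and the transport sum at 125.5% of control.

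In si-PTBP1 the list medians lay on opposite sides of the control. The 14 transport kinesins tested were all above control, with a median of 0.51, as compared with a median of 0.12 over all genes, of which 63.5% were above control. Of these 14, 1 rose by at least 1, against 2.92% of 13855 genes (3.53% in either direction). The 12 mitotic kinesins had a median of -0.21, with 10 below control, and 0 rose or fell, against 0.613% of genes that fell. MKI67 and TOP2A were at 326 and 538 CPM in si-PTBP1, or 54.2% and 80.7% of control, and their part in the result was not tested. With median-of-ratios scaling, which moved the median of all genes by 0.13, the transport median was 0.39 with 13 of 14 above control, KIF5B being the exception, and the mitotic median was -0.33 with 12 of 12 below. The same scaling turned 404 genes up and 85 down into 256 up and 132 down.

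The neuronal kinesin-1 heavy chains had the largest folds of the transport kinesins in si-PTBP1. KIF5A (ENSG00000155980, chromosome 12, 57549998 to 57586632) was at 3.83 CPM in control, 2.03 in si-hnRNPK, 2.65 in the LBCS-labelled library and 8.79 in si-PTBP1, from 235, 110, 186 and 493 reads. It rose to 230% of control in si-PTBP1 (196 to 269%), a change of 1.02 (0.83 to 1.21), and of 0.91 with median-of-ratios scaling, which ends the call. KIF5C was at 1.79, 1.05, 0.456 and 3.89 CPM, from 110, 57, 32 and 218 reads, and reached 217% of control in si-PTBP1 (172 to 275%), a change of 0.81. Both were highest in si-PTBP1 and lower in si-hnRNPK and the LBCS-labelled library than in control, while KIF5B was at 105% of control in si-PTBP1. KIF1A, the classical axonal kinesin-3, had 10 reads in control and 2 in si-PTBP1, so it stayed near the limit of detection. KIFC2, KIFC3, KIF1B, KIF1C and KIF3C had changes of 0.91, 0.78, 0.62, 0.58 and 0.57, short of the threshold. Of the mitotic kinesins, KIF14 and KIF20B were the lowest in si-PTBP1, at 68.1% (65.1 to 71.2%) and 71.8% of control (69.7 to 73.9%).

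In the LBCS-labelled library, 0 of the 12 mitotic and 0 of the 15 transport kinesins tested passed the threshold, against 0.378% of 13492 genes that rose and 1.01% that fell (1.39% in either direction). The mitotic median was 0.02 and the transport median -0.11, beside -0.01 over all genes. The mitotic kinesins lay within 0.27 of control on either side apart from KIF18B at -0.75 (-0.85 to -0.65) and KIF23 at -0.35. KIF5C had the lowest change, -0.94 (-1.15 to -0.70) from 32 reads, and KIF1C the highest, 0.76 (0.73 to 0.80). KIF21B, a neuronal relative of KIF21A below the level tested, had 52 reads in control, 53 in si-hnRNPK, 9 in the LBCS-labelled library and 56 in si-PTBP1. MKI67 was at 256 CPM and TOP2A at 655 CPM in that library, or 42.5% and 98.2% of control. The control was the highest library for both markers of cycling cells. Against the geometric mean of the other 3 libraries their changes in the LBCS-labelled library were -0.06 and 0.55. Their part in the result was not tested.

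Of the kinesins of the cilium and Hedgehog signalling, KIF24, which restrains cilium formation at the mother centriole, fell from 48.6 to 22.0 CPM in si-hnRNPK, a change of -1.11, which was -0.9999 with median-of-ratios scaling and then just missed the threshold. KIF24 was at 46.3 CPM in the LBCS-labelled library and 40.9 CPM in si-PTBP1. KIF9, a motor of motile cilia, was at 4.42 CPM in control, 9.63 in si-hnRNPK, 4.95 in the LBCS-labelled library and 4.30 in si-PTBP1, from 271, 523, 348 and 241 reads. Its change of 0.97 in si-hnRNPK lay just outside the threshold, at 218% of control (188 to 254%), and reached 1.07 with median-of-ratios scaling. KIF9 overlaps KLHL18 on the opposite strand, which was at 42.7 CPM in control and 35.6 CPM in si-hnRNPK, and whether reads were counted by strand is not given in the sources used here. The same holds for KIF24 and UBAP1 (45.3 and 61.3 CPM in control and si-hnRNPK), KIF7 and TICRR (29.6 and 11.2 CPM), and KIF4A and PDZD11 (79.0 and 72.6 CPM). It also holds for KIF18A and METTL15 (18.9 and 13.9 CPM), and for KIF20A, which overlaps BRD8 (101 and 54.1 CPM) and CDC23 (96.8 and 89.3 CPM). KIF2A overlaps DIMT1 (50.5 and 45.0 CPM) on the opposite strand and IPO11 (31.3 and 22.1 CPM) on its own. KIF15 overlaps TMEM42 (4.43 and 6.11 CPM) on its own strand. KIF7, the Hedgehog regulator, differed by no more than 1.06 times between any libraries, at 16.4 to 17.4 CPM. KIF27 was at 7.23, 4.27, 5.62 and 7.51 CPM in control, si-hnRNPK, the LBCS-labelled library and si-PTBP1. Of the others, KIF26A, an atypical kinesin without motor activity, was at 37.8, 24.9, 46.7 and 47.1 CPM, and KIF26B reached 1 CPM only in si-PTBP1, at 1.66 CPM, as compared with 0.717 CPM in control. KIF12 had 7 reads in control, 6 in si-hnRNPK, 3 in the LBCS-labelled library and 43 in si-PTBP1, and KIF25 had 4 to 10.

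The partners of the motors were compared in the same way. Of 16 partners of mitotic kinesins, 10 fell in si-hnRNPK, against the 3.93% given above, with a median of -1.24. CENPE was at 150.3 CPM in control, 44.4 in si-hnRNPK, 132 in the LBCS-labelled library and 103 in si-PTBP1, a change of -1.74 in si-hnRNPK. CEP55, a midbody scaffold, changed by -2.06, CIT (citron kinase, the partner of KIF14) by -1.91, PLK1, a mitotic kinase, by -1.80, PSRC1, which works with KIF2C, by -1.56 and TPX2, which recruits Aurora A to the spindle, by -1.44. RACGAP1, which joins KIF23 in centralspindlin, and PRC1, which brings KIF4A to the midzone, fell by 1.15 and 1.18 on the log2 scale. The 6 partners that did not pass the threshold were HMMR at -0.90, AURKB at -0.77, ECT2 at -0.74, CKAP5 at -0.73, NUMA1 at -0.01 and MAPRE1 at 0.15. Of 15 partners of transport kinesins, 1 fell, TRAK2, an adaptor of mitochondria, from 59.6 to 25.03 CPM, and 0 rose, with a median of 0.12. The kinesin light chains KLC1, KLC2, KLC3 and KLC4, which bind cargo for KIF5 motors, were at 29.4, 18.97, 2.57 and 7.38 CPM in control and 32.1, 15.4, 2.30 and 7.97 CPM in si-hnRNPK. KIFAP3, the subunit that joins KIF3A and KIF3B, was at 16.8 CPM in control and 15.4 CPM in si-hnRNPK. In si-PTBP1, 13 of the 15 transport partners lay above control, with a median of 0.40, beside 63.5% of all genes and a median of 0.12. With median-of-ratios scaling 11 of the 15 lay above control, with a median of 0.28. Of the 15, 1 rose, against 2.92% of all genes. This was MAPK8IP3, a kinesin-1 adaptor in axons, from 29.5 to 60.2 CPM. Its change of 1.005 was 0.88 with median-of-ratios scaling and then missed the threshold.

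**Figure D4:**
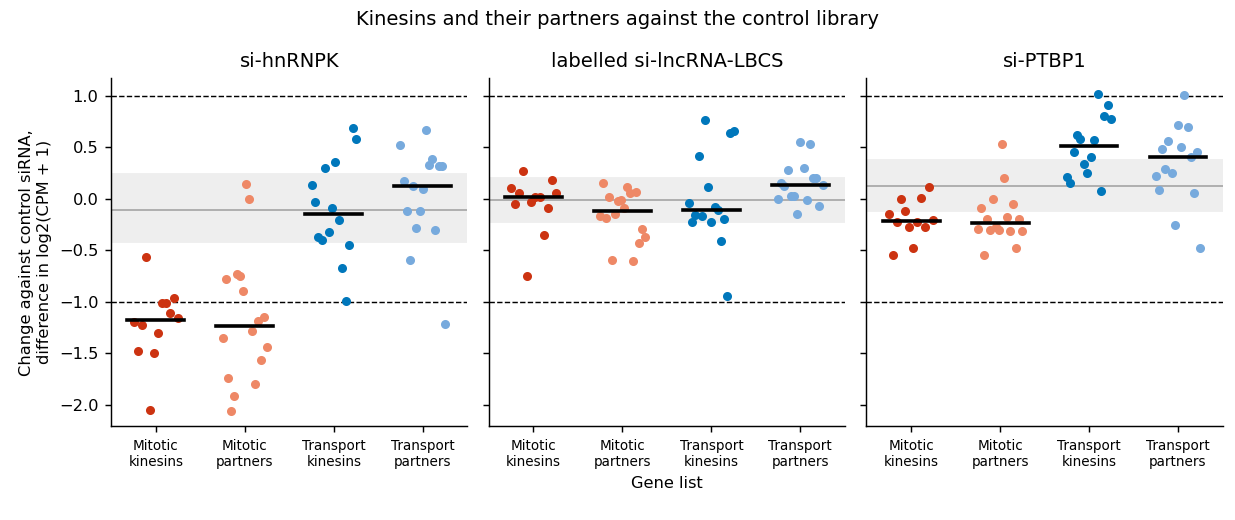
Change of each gene tested in 4 lists against the control library, as the difference in log2(CPM + 1), with 1 panel per knockdown. Points are genes, black bars list medians, grey bands and lines the interquartile range and median of all genes tested, and dashed lines changes of 1. The medians of mitotic kinesins and mitotic partners are -1.18 and -1.24 in si-hnRNPK, and those of transport kinesins and partners are 0.51 and 0.40 in si-PTBP1.

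None of the siRNAs matched a member over the 19 paired bases in GENCODE transcripts. The seed of an siRNA, guide bases 2 to 8, can also lower mRNAs with a match in the 3′ UTR, and 11 of the 38 members held a match to a seed of the hnRNPK siRNAs in their longest annotated 3′ UTR. By siRNA, 3 and 8 members matched for hnRNPK, 4 and 5 for lncRNA-LBCS, and 3 and 6 for PTBP1. The share of all genes with such a match was not calculated. Among the mitotic kinesins the median change in si-hnRNPK was -1.12 for the 4 with such a match and -1.18 for the 8 without. The 5 transport kinesins with a match were KIF1B, KIF1C, KIF3B, KIF5B and KIF13A, with a median of 0.14 and a range from -0.99 to 0.36, and the median of the 9 tested without a match was -0.20. KIF24 and KIF7 were the other members with a match, with changes of -1.11 and -0.02. The part of seed matches in these changes was not tested.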

How the data were processed

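RNA was sequenced as 100-base paired-end reads. The submitters' processing notes name hg19 as the build. The aligner, counter, annotation and any filter are not given in the sources used here. The authors deposited CPM (counts of reads scaled to 1000000 per library) for 1 library per condition, and 100% of values came out as whole reads within 0.01 of a read. Genes without reads carry a placeholder of at most 0.5 of a read. The worth of 3 reads was 0.0427 to 0.0552 CPM.

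Changes were calculated as differences in log2(CPM + 1) against control, for genes at 1 CPM or more in either library, with a threshold of 1. Lists are described by counts and medians beside those of all genes. Members and gene lists were chosen with earlier results of these data known. All members were counted. Named with values were the mitotic members, other members at 1 CPM or more in any library, CENPE, KIFAP3, the KLC genes, the siRNA targets, MKI67, TOP2A, and the partners that passed the threshold, at most 5 per list by size of change. TPX2, RACGAP1, PRC1, DYNC1H1, PAFAH1B1, TUBA1B, TUBA1C, TUBG1, HMMR, AURKB, ECT2, CKAP5, NUMA1, MAPRE1 and the genes overlapping members were chosen after their values were seen. An exact binomial test of the reads (adjusted q of at most 0.05), which compares libraries and not conditions, called 10872 genes in si-hnRNPK, 9479 in the LBCS-labelled library and 10182 in si-PTBP1. The calls were also made without a filter on low levels, at 5 CPM instead of 1, with 0.1 as pseudocount, at a 1.5-fold threshold, with median-of-ratios scaling over 12362 genes, and against the geometric mean of the other 3 libraries. Positions, lengths and 3′ UTRs are from GENCODE release 29 (GRCh38), matched by identifier, and 25647 of 27629 identifiers had a symbol. Scripts were tested on simulated data. Calculations were made with scipy 1.17.1, pandas 2.3.3 and numpy 2.4.6 under Python 3.11.15, and figures with matplotlib 3.10.9.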

Additional observations from a re-analysis of the deposited data

How the results depend on the processing

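With 1 library per condition, the spread between cultures is unknown for every value. The number of genes past the threshold in si-hnRNPK was 1023, and it was 1785 with a pseudocount of 0.1, 3517 with a 1.5-fold threshold and 675 against the geometric mean of 3 libraries. The same settings gave 518, 1333 and 110 genes from 187 in the LBCS-labelled library, and 966, 2105 and 308 from 489 in si-PTBP1. The median of the mitotic kinesins in si-hnRNPK was -1.07 with median-of-ratios scaling and between -1.19 and -1.13 under the other settings, including without KIF18B, which was added after seeing the data. Against the geometric mean 8 of the 12 fell, with KIF2C, KIF22 and KIF23 lost and KIF4A gained. KIF9 also passed with a pseudocount of 0.1. At 1.5-fold, 2 transport kinesins were down and 1 up in si-hnRNPK, near the 15.8% of all genes down and 9.89% up. In the LBCS-labelled library, 1 mitotic and 1 transport kinesin were then down and 3 transport kinesins up (5.74% of all genes down, 4.14% up), and 1 transport kinesin, KIF5C, was down with a pseudocount of 0.1 or the geometric mean. Against the geometric mean, which holds the si-hnRNPK library, the mitotic median was 0.48 in the LBCS-labelled library and 0.16 in si-PTBP1. In si-PTBP1 the mitotic median was -0.33 with median-of-ratios scaling, and the number of transport kinesins up was 2 with a pseudocount of 0.1, 5 of 14 at 1.5-fold (12.1% of all genes), 0 with median-of-ratios scaling, 2 against the geometric mean and 0 among members at 10 CPM or more, a list set after seeing the data. Without KIF5B the transport sum was at 111%, 120.2% and 141% of control in si-hnRNPK, the LBCS-labelled library and si-PTBP1, instead of 84.3%, 106% and 125.5%. The binomial test added to the threshold of 1 left the counts made at that threshold as they were. Causes were not tested. No paired analysis was possible because each condition has 1 library.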

Other observations

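The tracks and the opposite motor of the kinesins were not part of the comparisons above. Of 18 genes of cytoplasmic dynein, the minus-end motor, and its cofactor dynactin listed for all libraries, 1 rose and 1 fell in si-hnRNPK, with a median of -0.16, as compared with 3.55% of all genes tested that rose, 3.93% that fell and a median of -0.11. NDE1, a dynein regulator used at kinetochores, fell from 28.9 to 11.3 CPM, a change of -1.28, and DYNLL2, a light chain, rose from 6.79 to 16.96 CPM, a change of 1.20. DYNC1H1, the dynein heavy chain, was at 2283 CPM in control and lower in each knockdown library, at 1539.9, 1257 and 1575 CPM in si-hnRNPK, the LBCS-labelled library and si-PTBP1. These comparisons share the control, which was its highest library. Against the geometric mean of the other 3 libraries its change was -0.10 in si-hnRNPK, -0.49 in the LBCS-labelled library and -0.06 in si-PTBP1. In si-PTBP1, 0 dynein or dynactin genes passed the threshold (3.53% of all genes), with a median of 0.19 (0.12 over all genes) and PAFAH1B1 (LIS1) the highest at 0.70.

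Of 10 tubulin genes tested, 1 rose in si-hnRNPK and 0 fell, as compared with the same shares over all genes. TUBA1A, an alpha-tubulin prominent in developing neurons, was at 83.6 CPM in control, 481 in si-hnRNPK, 165 in the LBCS-labelled library and 194 in si-PTBP1, a change of 2.51 in si-hnRNPK. It was above control in each knockdown library, and changed by 1.21 in si-PTBP1, but these comparisons share the control, which was its lowest library. Against the geometric mean of the other 3 libraries its change was 1.78 in si-hnRNPK, -0.27 in the LBCS-labelled library and 0.05 in si-PTBP1. TUBA1B and TUBA1C, close copies of it whose reads may be split between them, were at 560 and 253 CPM in control and at 466 and 263 CPM in si-hnRNPK. TUBG1, the gamma-tubulin of spindle poles, had the lowest change of the tubulins in si-hnRNPK, at -0.89.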
